A study of Mus musculus with 2 samples.

Results

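The UDP-glucuronosyltransferases (UGT), sulfotransferases (SULT) and glutathione S-transferases (GST) of the mouse small intestine are described here across their gene families. They were chosen by symbol as protein-coding genes of the Ugt1 to Ugt3, Sult, cytosolic Gst and microsomal Mgst series, which gave 67 genes. Of these, 66 had a row among the 43346 genes of the deposited tables: 20 UGT, 21 SULT and 25 GST genes, with the 3 Mgst genes counted in the GST family. Ugt2a1 was not analysed here. Poly(A) RNA had been sequenced from small intestine tissue of 1 adult female C57BL/6J mouse aged 10 weeks, with no treatment or engineered allele named in the labels. The labels name 2 technical libraries of that animal: technical replicate 2, made in 2015 and called the second library, and technical replicate 1, called the first library. The labels state neither the stretch of intestine nor whether 1 extraction of RNA served both libraries. No value below describes variation between mice.

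These enzymes carry out the conjugation step of detoxification, in which a water-soluble group is joined to a drug, a food compound, a hormone, bilirubin or a bile acid. UGTs sit in the endoplasmic reticulum and transfer glucuronic acid, most SULTs are cytosolic and transfer sulfate, and GSTs join glutathione to reactive electrophiles, in the cytosol, in mitochondria or in membranes. In the intestine they act in absorptive cells on what is swallowed, before it reaches the liver.

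Levels are given as TPM, an abundance per transcript length scaled to the same sum in each library, which allows genes to be compared within a library. The libraries held 24509862 expected counts (second) and 28277875 (first), so 3 counts, the limit that a count of 0 allows, correspond to 0.122 CPM in the second library and 0.106 CPM in the first. Mitochondrial genes and their nuclear copies took 21.6% of TPM in the second library, against 72.3% in the first, which lowers the TPM of all other genes in the first. A gene can therefore have a higher TPM in the second library and still a smaller share of the non-mitochondrial RNA there. Differences between libraries were computed from counts scaled by the TMM method, as a log2 ratio of the second over the first library. A gene was called different at an adjusted p under 0.05 in a two-sided exact binomial test and a difference of 2-fold or more. The test compares the reads of these 2 libraries and covers counting error only. Over all genes the log2 ratio also followed the GC content of the transcripts, with a Pearson's r of 0.80 across 15127 nuclear genes, so ratios of members are given with the value after a smoothed GC trend was removed. That GC content is the plain mean over a gene's annotated transcripts, expressed or not. A second trend, added after the data were seen, used GC weighted by the counts of each transcript (r of 0.84), and its values are called count-weighted and given where they move a call or a value by over 1.5-fold.

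All 3 families were expressed, led in both libraries by Ugt2b34 among UGT, Sult1b1 among SULT and Gsta1 among GST genes. At 1 TPM or more, 35 of the 66 members were detected in both libraries, against 40.2% of all protein-coding genes. A further 5 were detected in the second library alone, 0 in the first alone and 26 in neither, of which 12 had 0 counts in both. Just inside that limit was Ugt2b38, at 1.03 TPM in the second library and 1.5 TPM in the first, and just outside it Mgst3, at 0.97 TPM in the first. GST genes took 0.781% of all TPM in the second library, against 0.168% in the first, SULT genes 0.110% (second) and 0.191% (first), and UGT genes 0.138% (second) and 0.153% (first). Of the TPM outside mitochondrial genes and their copies, GST genes took 0.996% in the second library, against 0.607% in the first, SULT genes 0.140% (second) and 0.689% (first), and UGT genes 0.176% (second) and 0.553% (first). Across the 66 members TPM was ordered alike in both libraries, with a Spearman's rho of 0.849, a value across genes that share the same libraries. It takes in the 26 members detected in neither, so part of it is the split between silent and expressed genes.

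**Figure D1:**
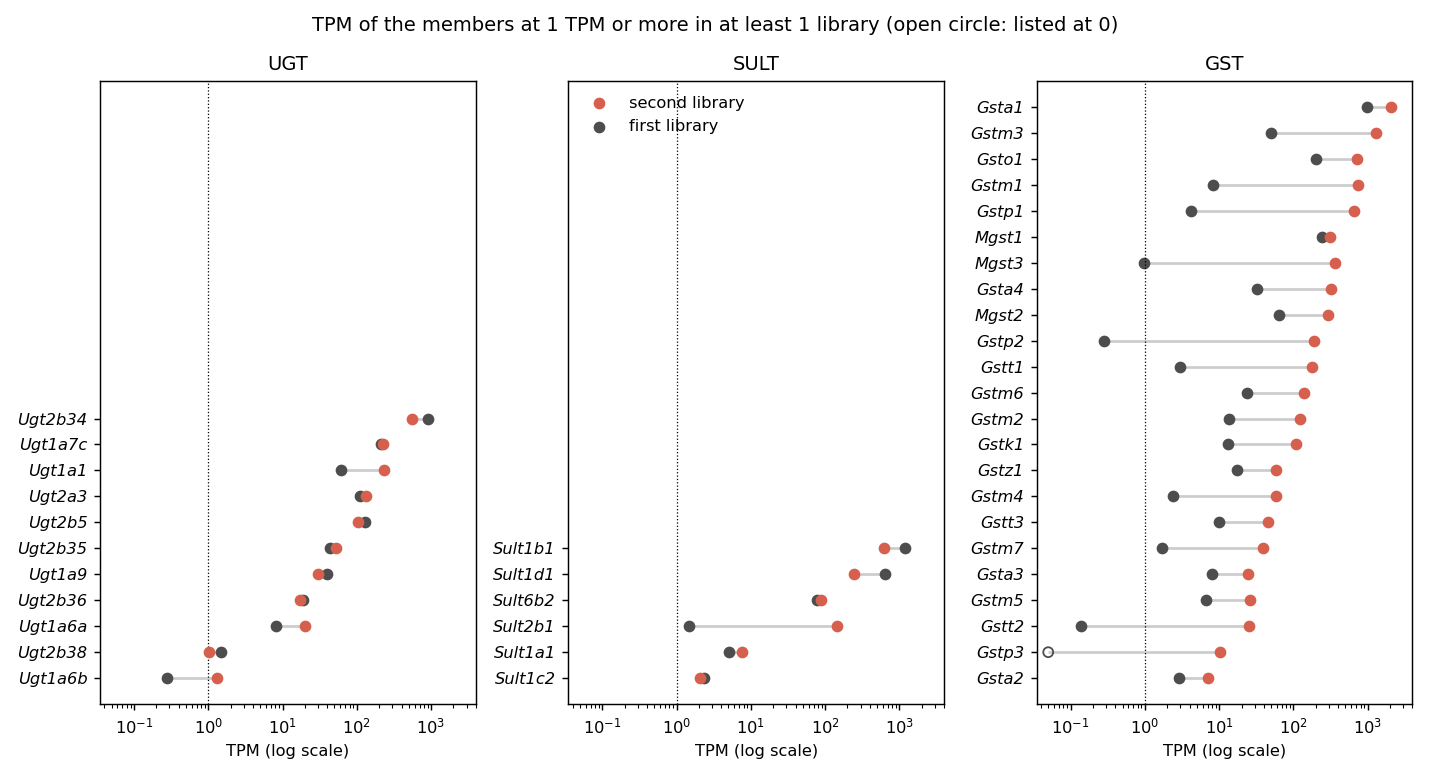
TPM (log axis) of each UGT, SULT and GST gene at 1 TPM or more in at least 1 library; red points are the second library, dark points the first, and the dotted line marks 1 TPM. Ugt2b34, Sult1b1 and Gsta1 lead their families in both libraries, UGT points lie close together, and most GST points of the first library lie far left of those of the second, with Gstp3 listed at 0 there.

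Of the 43 members with enough counts to test, 18 were higher in the second library, where 40.2% of all 15194 tested genes were. In the first library 14 members were higher, against 27.5% of all genes, and 11 differed by less than 2-fold. The families split in direction. GST genes gave 16 higher in the second library, against 0 in the first of 23 tested, UGT genes 0 (second) and 10 (first) of 13, and SULT genes 2 (second) and 4 (first) of 7. Their median log2 ratios were 2.04 for GST, -1.40 for UGT and -1.10 for SULT, beside 0.26 for all genes.

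The same split ran along GC content. The 18 members higher in the second library had a GC content of 49.2% to 58.2%, and the 14 higher in the first had 34.7% to 48.3%. Count-weighted GC was 49.2% or more for the members higher in the second library and 46.8% or less for those higher in the first. The ranges did not overlap, but the log2 ratio of all nuclear genes followed GC content too, with r of 0.80. GC ranges of all called genes were not computed, so this separation is not shown to be particular to the members. Median GC was 51.6% for GST, 45.6% for UGT and 44.0% for SULT genes, beside 50.4% for all tested genes. Across the 43 members the log2 ratio and GC content had a Pearson's r of 0.81 and a Spearman's rho of 0.88. Within families r was 0.77 for GST, 0.93 for SULT and 0.36 for UGT. With the trend removed, 18 members were higher in the second library, against 3 in the first, where 17.5% and 17.6% of 15151 genes were. Of the GST genes 15 were then higher in the second library, against 1 in the first, of the UGT genes 3 (second) and 2 (first), and of the SULT genes 0 in either. The 2 UGT genes were Ugt1a5, with 6.71 (second) and 21.9 (first) counts, and Ugt1a2, with 13.3 (second) and 40.3 (first). Both were under 1 TPM in both libraries. The 3 were Ugt1a1, Ugt2b35 and Ugt1a6b, the last with 52.1 (second) and 17.3 (first) counts. With read allocation included, which the test leaves out, SEs were 1.21 for Ugt1a5, 0.85 for Ugt1a2 and 0.73 for Ugt1a6b. Medians after removal were 1.47 for GST, 0.35 for UGT and 0.13 for SULT genes, and 21 of 23 GST genes lay above the trend. With the count-weighted trend 18 members were higher in the second library, against 2 in the first, where 14.1% and 13.1% of 15141 genes were. By family these were 15 (second) and 0 (first) GST genes, the same 3 (second) and 2 (first) UGT genes and 0 SULT genes, and 20 of 23 GST genes lay above it.

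**Figure D2:**
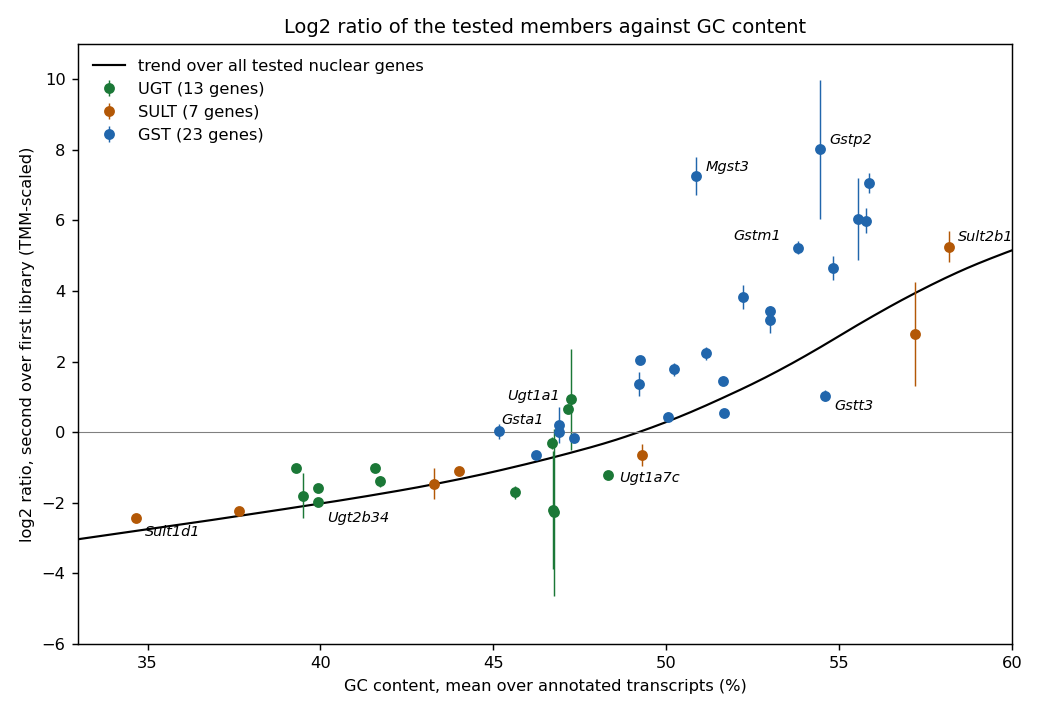
Log2 ratio of the second over the first library (TMM-scaled counts) against the mean GC content of the annotated transcripts for the 43 tested members; bars are 95% intervals from counting error and read allocation, and the line is the trend over all tested nuclear genes. Mgst3 (7.26) and Gstp2 (8.01) stand far above the line and Gstt3 (1.03) below it. Of the UGT and SULT genes, Ugt1a6b (1.52), Ugt1a1 (1.27) and Ugt2b35 (1.12) lie furthest above the line, by their values once the trend is removed. Ugt1a5 (-1.56), Ugt1a2 (-1.48) and Sult4a1 (-1.15) lie furthest below it. Of these UGT and SULT genes, all but Ugt1a1 and Ugt2b35 rest on few counts.

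Among the UGT genes, Ugt2b34 was the most abundant in both libraries, at 554 TPM in the second and 902 TPM in the first, or 40.3% (second) and 59.0% (first) of the family. Ugt2b enzymes conjugate steroids, bile acids and other lipids. The gene lies on chromosome 5 at 86889767 to 86906937 (mm10, minus strand), and its log2 ratio was -1.99 with an SE of 0.01 and 0.05 after GC removal. Ugt2b5 followed with 104.5 TPM in the second library and 130 TPM in the first, Ugt2b35 with 52.5 TPM (second) and 43.9 TPM (first), and Ugt2b36 with 17.3 TPM (second) and 18.8 TPM (first). Ugt2a3, whose human counterpart glucuronidates bile acids, had 134 TPM in the second library and 112 TPM in the first. All 5 of these genes, Ugt2b38 as well, were higher in the first library by the test, by 2.02- to 3.97-fold. After GC removal Ugt2b35 was higher in the second library, with a log2 ratio of 1.12, and the other 5 differed by less than 2-fold. Of the other Ugt2 and Ugt3 genes none reached 1 TPM: the lead of the Ugt3 pair, Ugt3a1, had 0 counts in the second library, against 3 in the first, and Ugt2b37 had 0 in both.

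The Ugt1a locus on chromosome 1 makes its enzymes from alternative first exons, each with a start site of its own, spliced to 4 shared exons. Its 9 members spanned 88055388 to 88220002 on mm10, with first exons of 879 to 954 bases in transcripts of 2190 to 3231 bases. Nearly all of the signal came from 4 starts. Ugt1a1, the enzyme that conjugates bilirubin, had 233 TPM in the second library and 60.9 TPM in the first, and Ugt1a7c had 228 TPM (second) and 211 TPM (first). Together these took 89.8% of the locus's TPM in the second library, against 84.5% in the first. Ugt1a9 had 29.9 TPM in the second library and 40.3 TPM in the first, and Ugt1a6a, which acts on small phenols, had 20.3 TPM (second) and 8.07 TPM (first). The other 5 starts summed to 2.22 TPM in the second library and 1.32 TPM in the first.

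The starts of this locus did not move together. Ugt1a1 had a log2 ratio of 0.66 with an SE of 0.04, under the 2-fold limit, and 1.27 after GC removal, when it was higher in the second library. Ugt1a7c had -1.21 with an SE of 0.02 and was higher in the first library, and -0.92 after GC removal, under the limit. The plain GC means of Ugt1a1 and Ugt1a7c are 47.2% and 48.3%, but the transcript that held 96.8% of Ugt1a7c in the second library, against 100% in the first, is poorer in GC. With a count-weighted GC of 44.5% the ratio of Ugt1a7c was -0.05 after removal, so it lay on the trend, whereas Ugt1a1 stayed higher in the second library at 1.13. The first exons alone were closer in GC, with 49.0% for Ugt1a1 and 48.0% for Ugt1a7c. The other exons of these transcripts had 45.9% and 43.0%. No ratio was computed from the first exons alone. Ugt1a9 was also higher in the first library, with a log2 ratio of -1.71, and under the limit at -0.72 after GC removal, and Ugt1a6a was under the limit at -0.31 before and 0.42 after. Ugt1a1 and Ugt1a7c thus took 45.5% and 44.3% of the locus in the second library, and 18.9% and 65.6% in the first. Because the exons are shared, only 19.8% of the 50-base windows of the Ugt1a1 transcript and 59.1% of those of Ugt1a7c occur in no other gene. The deposited posterior standard deviations of the read allocation were nonetheless 1.11% of the Ugt1a1 count in the second library, against 2.02% in the first, and 0.753% (second) and 0.448% (first) for Ugt1a7c. For Ugt1a6a only 2.26% of windows were unique, and its retained-intron transcript held 35.5% of its TPM in the second library, against 100% in the first, so its level is uncertain.

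The promoters of the 2 leading starts are shown because each start of the Ugt1a locus has its own, upstream of the shared exons. The 150 bases before the start of Ugt1a1 (chr1:88211809-88211958, plus strand) and of Ugt1a7c (chr1:88094851-88095000, plus strand) are printed 5′ to 3′ on the gene's strand (RefSeq, GRCm38.p6), in lower case throughout since no part is marked.
Ugt1a1: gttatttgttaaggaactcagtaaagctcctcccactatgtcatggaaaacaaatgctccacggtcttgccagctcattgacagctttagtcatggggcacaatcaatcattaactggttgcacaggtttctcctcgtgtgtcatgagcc
Ugt1a7c: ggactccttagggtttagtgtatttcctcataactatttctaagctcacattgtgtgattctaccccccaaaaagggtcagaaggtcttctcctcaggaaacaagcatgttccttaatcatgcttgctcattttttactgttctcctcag
The RefSeq starts of Ugt1a1 and Ugt1a7c lie 0 and 61 bases from the gene starts of GENCODE M21. Over the 250 bases before each RefSeq start the median GC content was 37.2% for UGT, 38.6% for SULT and 55.2% for GST promoters, beside 52.4% for all 32851 promoters.

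Sulfotransferases were dominated by a pair of Sult1 genes. Sult1b1, which sulfates phenols and thyroid hormones, had 612 TPM in the second library and 1185 TPM in the first, where it was the most abundant of all 66 members. Sult1d1, a mouse sulfotransferase of catecholamines, had 247 TPM in the second library and 632 TPM in the first. Together they took 78.0% of the family's TPM in the second library, against 95.4% in the first. Both genes are AT-rich, with 37.6% and 34.7% GC, and both were higher in the first library, by 4.73- and 5.40-fold, with log2 ratios of 0.13 and 0.37 after GC removal. They lie beside the Ugt2 genes on chromosome 5, between 86889767 and 87591594, in a cluster of 12 members. Of the 8 tested there all 8 were higher in the first library, and after GC removal 1 was higher in the second and 0 in the first.

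Sult2b1, which sulfates cholesterol and pregnenolone, was far more abundant in the second library, at 144 TPM, than in the first, at 1.49 TPM, from 2462 (second) and 41 (first) counts. Its log2 ratio was 5.26 with an SE of 0.22, at the highest GC content of the members (58.2%), and 0.84 after GC removal, under the 2-fold limit. Sult6b2 had 87.0 TPM in the second library and 78.6 TPM in the first, was 2.14-fold higher in the first, and had a log2 ratio of 0.24 after GC removal. Most of its TPM came from Sult6b2-202, a transcript annotated as a target of nonsense-mediated decay, with 66.8% in the second library, against 64.1% in the first, so only 28.9 TPM (second) and 28.2 TPM (first) stood for the protein-coding form. Sult1a1, the phenol sulfotransferase prominent in liver, had 7.67 TPM in the second library and 5.01 TPM in the first, with a log2 ratio of -0.65 before and -0.68 after GC removal, both under the 2-fold limit. Sult1c2 had 2.07 TPM (second) and 2.37 TPM (first), and was 2.76-fold higher in the first library, with a log2 ratio of 0.01 after GC removal.

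The remaining 15 sulfotransferases stayed under 1 TPM in both libraries. The Sult2a genes, which sulfate bile acids and steroids in liver, form a cluster of 8 on chromosome 7, and 7 of them had 0 counts in both libraries. The eighth, Sult2a8, had 0 counts in the second library, against 5 in the first. The estrogen sulfotransferase gene Sult1e1 had 0 counts in the second library, against 1 in the first. Sult4a1, a brain-enriched member, had 0.89 TPM (second) and 0.05 TPM (first) from 37 (second) and 3 (first) counts and was higher in the second library before but not after GC removal. Sult5a1, with 9 (second) and 0 (first) counts, and Sult3a1, with 0 (second) and 1 (first), led their subfamilies.

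Among the glutathione transferases, the alpha-class gene Gsta1 led in both libraries, at 2084 TPM in the second and 968 TPM in the first, or 26.7% (second) and 57.6% (first) of the family. It lies on chromosome 9 at 78230656 to 78242684 (mm10, plus strand). Its log2 ratio was 0.02 with an SE of 0.01 (adjusted p = 0.279 in the exact binomial test over all genes) and 0.69 after GC removal. The protein-coding transcript Gsta1-201 held 76.8% of it in the second library, against 40.3% in the first, and a retained-intron transcript held the rest. The coding form alone therefore had 1602 TPM in the second library and 390 TPM in the first. Only 10.3% of its 50-base windows were unique and 82.9% were shared with Gm3776, a gene not analysed here, so the level may belong to both. Gsta4, which clears the lipid peroxidation product 4-hydroxynonenal, had 324 TPM in the second library and 32.7 TPM in the first and was 4.12-fold higher in the second, with log2 ratios of 2.04 before and 2.03 after GC removal.

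The mu-class Gstm genes, on chromosome 3, were all higher in the second library. Gstm3 had 1293 TPM in the second library and 49.8 TPM in the first, and Gstm1 had 746 TPM in the second library and 8.32 TPM in the first. Gstm1 thus took 30.8% of the subfamily in the second library, against 7.83% in the first. The log2 ratios of these 7 genes ran from 1.37 for Gstm5 to 5.23 for Gstm1 (SE 0.09), and after GC removal from 0.48 for Gstm6 to 3.18 for Gstm1, when 6 of 7 were higher in the second library. Gstm4 had 2.60 after GC removal and 2.01 on the count-weighted trend, still higher in the second. Gstm6 had 137 TPM in the second library and 23.9 TPM in the first, and Gstm2 had 122 TPM (second) and 13.5 TPM (first). Gstm4, Gstm7 and Gstm5 had 25.9 to 58.6 TPM in the second library and 1.71 to 6.71 TPM in the first. Of the windows of Gstm5, matched on both strands, 14.4% are shared with the antisense gene 4933431E20Rik, which had 5.32 TPM in the second library and 3.88 TPM in the first. The posterior standard deviation of the read allocation was 0 for both genes in both libraries.

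The pi-class genes stood far apart. Gstp1, whose product is the pi-class enzyme of many epithelia, had 649 TPM in the second library and 4.24 TPM in the first, from 7078 (second) and 71.1 (first) counts. Gstp2 had 192 TPM (second) and 0.28 TPM (first), and Gstp3 had 10.3 TPM in the second library and 0 counts in the first, at least 22.1-fold higher in the second against a limit of 3 counts in the first. The log2 ratio was 5.99 for Gstp1 (SE 0.18) and 8.01 for Gstp2 (SE 1.00), and 2.81 and 5.60 after GC removal. For Gstp3 it was 7.06 before and 3.84 after GC removal, values that depend on the prior count. The 22.1-fold bound is before GC removal, and with a trend of 3.22 at the GC content of Gstp3 it would be far lower after. Gstp1 and Gstp2 share 62.3% of the windows of Gstp1, and the posterior SD of the Gstp2 count was 1.67% in the second library, against 61.3% in the first, where it held 4.86 counts. The ratio of the pair in the first library is thus poorly set.

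Theta-class genes followed with Gstt1 at 180 TPM in the second library and 2.95 TPM in the first, and Gstt2 at 24.9 TPM (second) and 0.14 TPM (first). Their neighbour Gstt3 had 46.0 TPM in the second library and 9.93 TPM in the first, with a log2 ratio of 1.03. After GC removal Gstt3 turned to -1.45 and was the only GST gene then higher in the first library, but with its count-weighted GC of 52.3%, against a plain mean of 54.6%, it was under the limit at -0.38. Gstt1 stayed higher in the second library at 2.03 after GC removal and 2.20 on the count-weighted trend. The omega-class gene Gsto1, whose enzyme reduces dehydroascorbate, differed little, with 714 TPM in the second library, 204 TPM in the first and a log2 ratio of 0.55 (SE 0.02) before and -0.44 after GC removal. Gstz1, an isomerase of tyrosine breakdown, had 57.8 TPM in the second library and 17.6 TPM in the first, with log2 ratios of 0.44 before and 0.13 after GC removal, also under the 2-fold limit. The kappa-class Gstk1, of mitochondria and peroxisomes, had 109 TPM (second) and 13.2 TPM (first) and was 3.43-fold higher in the second library, with a log2 ratio of 1.41 after GC removal.

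The 3 membrane-bound transferases ranged from close to far apart. Mgst1, which also reduces lipid peroxides, had 307 TPM in the second library and 245 TPM in the first, with a log2 ratio of -0.64 (SE 0.03) before and 0.19 after GC removal. Mgst2, which can make leukotriene C4, had 291 TPM (second) and 63.2 TPM (first) and a log2 ratio of -0.18 before and 0.38 after GC removal, so both differed by less than 2-fold. Mgst3 had 364 TPM in the second library and 0.97 TPM in the first, from 6297 (second) and 26 (first) counts, and was 153-fold higher in the second library. Its GC content, 50.9%, was close to the median of all genes, and its log2 ratio of 7.26 (SE 0.28) remained at 6.63 after GC removal, the largest of the tested members. Mgst3 has a single transcript in the tables and all of its windows are unique.

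**Figure D3:**
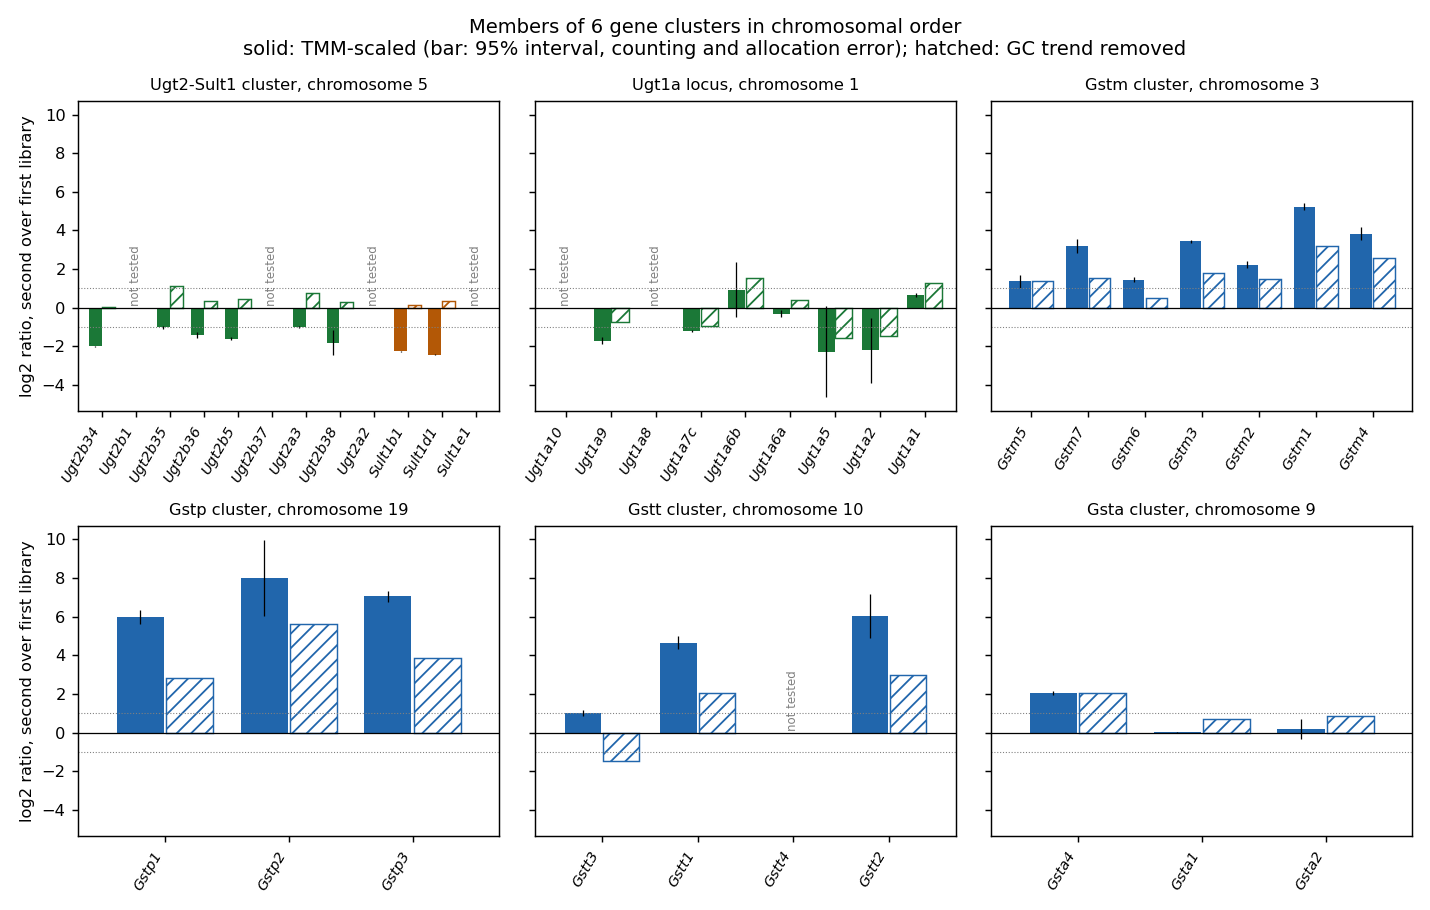
Log2 ratio of the second over the first library for the members of 6 gene clusters in chromosomal order; solid bars are TMM-scaled values with 95% intervals from counting error and read allocation, and hatched bars are values after removal of the GC trend. In the Ugt2-Sult1 cluster all 8 tested genes lie below 0 and move to 0.05 to 1.12 after removal, where the count-weighted trend puts Ugt2b34 at -0.17 and Sult1b1 at -0.04, while the 7 Gstm and 3 Gstp genes lie above 0 on both scales; the plotted value of Gstp3 depends on the prior count, since it had 0 counts in the first library.

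Within the families, shares of TPM shifted between the libraries. Gsta1, Gstm3 and Gsto1, the 3 GST genes of highest mean TPM, took 52.4% of the family in the second library, against 72.7% in the first, and 14 GST genes reached 100 TPM or more in the second library against 3 in the first. For UGT the 3 leading genes took 73.7% in the second library, against 76.7% in the first, and 5 (second) and 4 (first) genes reached 100 TPM. Rank orders of TPM between libraries gave a Spearman's rho of 0.91 for UGT, 0.83 for SULT and 0.65 for GST genes. These values take in members under 1 TPM in both libraries, which were 9 of 20 UGT, 15 of 21 SULT and 2 of 25 GST genes. The families therefore cannot be ranked by them. Since this is bulk tissue, fewer cells of a type and less RNA per cell cannot be told apart.

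**Figure D4:**
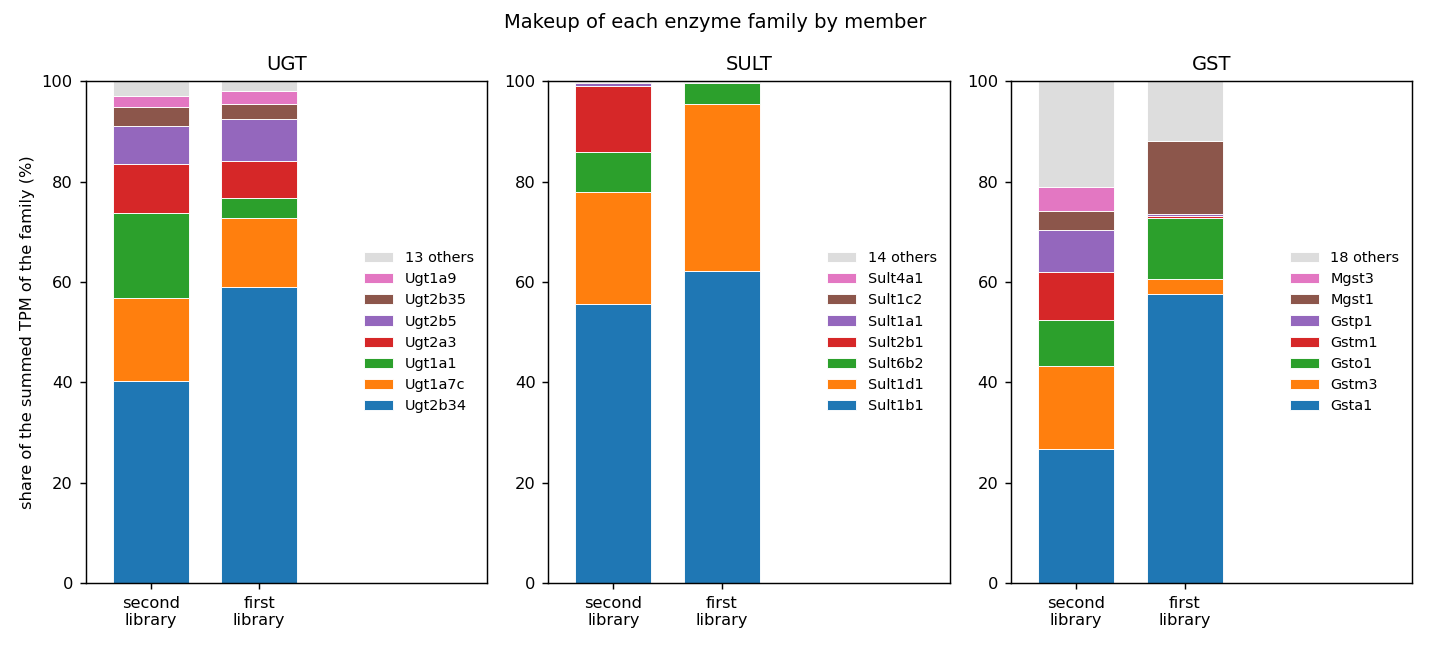
Share of each family's summed TPM held by its 7 members of highest mean TPM and by all others, with the second library left of the first. Ugt2b34 holds 40.3% (second) and 59.0% (first) of UGT, Sult1b1 55.6% (second) and 62.2% (first) of SULT, and Gsta1 26.7% (second) and 57.6% (first) of GST, while Gstm3, Gstm1 and Gstp1 form a broad band of GST in the second library and a thin one in the first.

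Transcript forms also differed. Of the 22 members with a mean of 5 TPM or more and at least 2 expressed transcripts, most were GST genes. The main transcript's share differed by 25 percentage points or more in 10, of which 9 were GST genes and 1 was Ugt1a6a. This count was not made over all genes, so it is not shown to be particular to the members or to GST genes. For Mgst1, whose gene level was similar, the transcript Mgst1-207 held 0% in the second library, against 93.2% in the first, while Mgst1-201 held 56.0% (second) and 6.66% (first). Gstm2-201 held 95.5% of Gstm2 in the second library, against 18.7% in the first, and Gstm4-201 held 96.2% (second) and 8.80% (first). For Mgst2 a retained-intron form, Mgst2-205, held 12.0% in the second library, against 47.0% in the first. The leading UGT and SULT genes kept their form: Ugt2b34-201 held 99.0% in the second library, against 98.1% in the first, and Sult1b1-203 held 94.3% (second) and 93.2% (first). Shares rest on estimated allocation of reads among overlapping transcripts, and no error for a share was computed.

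**Figure D5:**
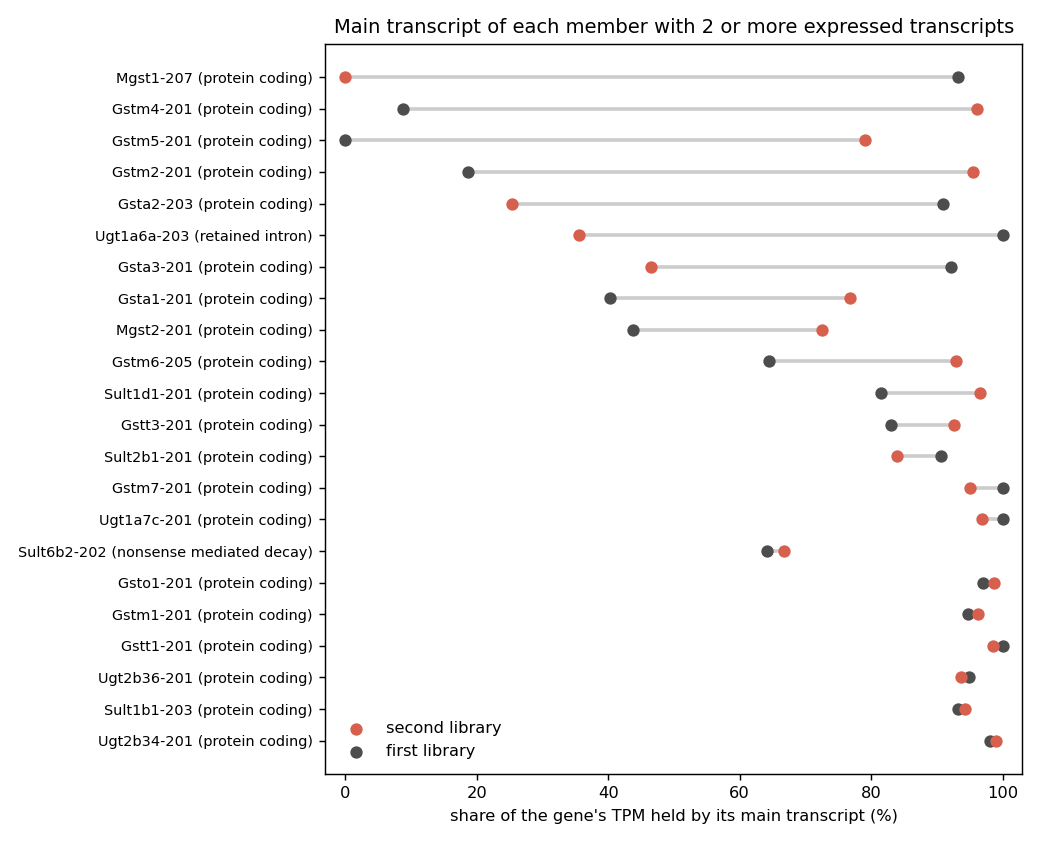
Share of a gene's TPM held by its main transcript (that of highest mean share) for the 22 members with at least 2 expressed transcripts, with red points for the second library and dark points for the first. The points lie together for Ugt2b34, Sult1b1 and Gstm1 and lie furthest apart for Mgst1-207 (0% second, 93.2% first), Gstm4-201 (96.2% second, 8.80% first) and Gstm5-201 (79.1% second, 0% first).

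The genes that supply the donor groups were also expressed. For glucuronidation, Ugdh, which makes UDP-glucuronic acid, had 334 TPM in the second library and 517 TPM in the first, and Ugp2, which makes its precursor, had 63.7 TPM (second) and 122 TPM (first). Both were higher in the first library and 0 of the 4 supply genes in the second. After GC removal 0 of 4 differed. For sulfation, Papss2, the synthase of the sulfate donor PAPS, had 349 TPM in the second library and 423 TPM in the first, and Bpnt1, which clears the spent donor, had 509 TPM (second) and 302 TPM (first). The log2 ratio of Papss2 was -1.56, higher in the first library, and -0.61 after GC removal, under the limit. That of Bpnt1 was -0.92, under the limit, then -2.76 after GC removal but -0.18 on the count-weighted trend. Of 7 tested genes of this list 1 was higher in the second library, against 2 in the first, with 1 (second) and 1 (first) after GC removal and 0 in either on the count-weighted trend.

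For glutathione, 14 genes of synthesis and salvage were tested. Of these 6 were higher in the second library, against 4 in the first, near the shares of all genes (40.2% and 27.5%). After GC removal 5 (second) and 2 (first) were higher, beside 17.5% and 17.6% of all genes. On the count-weighted trend 5 (second) and 0 (first) were, beside 14.1% and 13.1%. Ggt1, the surface enzyme that opens glutathione and its conjugates, had 841 TPM in the second library and 6.23 TPM in the first, a 150-fold difference in scaled counts, with log2 ratios of 7.23 before and 3.69 after GC removal. Anpep, a brush border peptidase that finishes the breakdown, had 1555 TPM in the second library and 195 TPM in the first. Its log2 ratio of 1.72 turned to -1.94 after GC removal, when it was higher in the first library, and was 0.16 on the count-weighted trend, under the limit. Lap3, another peptidase of the list, had 219 TPM (second) and 70.5 TPM (first) and differed by less than 2-fold.

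Exporters of conjugates were present, led by Abcc2, the apical pump for glucuronides and glutathione conjugates, at 202 TPM in the second library and 267 TPM in the first, under the 2-fold limit. Slc51b, a subunit of the basolateral bile acid and steroid conjugate transporter, had 140 TPM in the second library and 50.9 TPM in the first, also under the limit. Its partner subunit Slc51a, named after its values were seen, had 148 TPM in the second library and 1.94 TPM in the first and was 31.3-fold higher in the second, with a log2 ratio of 5.42 after GC removal. Abcg2, an apical pump for sulfates, had 101 TPM (second) and 82.0 TPM (first) and was higher in the first library. Among the 8 exporters 2 were higher in the second library, against 1 in the first, where 40.2% and 27.5% of all genes were. After GC removal 1 (second) and 0 (first) were higher, beside 17.5% and 17.6% of all genes. Genes that remove the conjugate were low, led by Sumf1, the activator of sulfatases, at 20.9 TPM in the second library and 16.0 TPM in the first, with Gusb, the glucuronidase, at 14.8 TPM (second) and 2.33 TPM (first) and Arsa at 13.0 TPM (second) and 0.76 TPM (first). Of 5 such genes with enough counts, 2 (second) and 1 (first) were higher, beside 40.2% and 27.5% of all genes. After GC removal 0 (second) and 2 (first) were, beside 17.5% and 17.6%. The 2 were Sumf1 at -1.99 and Arsa at -1.22. On the count-weighted trend Sumf1 was at -1.16, still higher in the first library.

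Of 17 regulators known to act on these enzymes, 11 were higher in the second library, against 1 in the first, where 40.2% and 27.5% of all genes were. After GC removal 2 (second) and 7 (first) were higher, beside 17.5% and 17.6% of all genes. On the count-weighted trend 2 (second) and 5 (first) were, beside 14.1% and 13.1%. The same shares of all genes apply to the 6 other NRF2 targets below. The most abundant were Nfe2l2, the factor NRF2 of the antioxidant response, with 201 TPM in the second library and 153 TPM in the first, Hnf4a with 223 TPM (second) and 27.3 TPM (first), and the vitamin D receptor gene Vdr with 196 TPM (second) and 40.6 TPM (first). Hnf4a was higher in the second library, with a log2 ratio of 1.65, and in the first after GC removal, at -1.66, but under the limit at -0.50 on the count-weighted trend. Vdr was under the limit at 0.93 and at -0.53 on the count-weighted trend, and higher in the first library only with the plain GC mean, at -1.70. Of 6 other genes known as NRF2 targets 4 were higher in the second library, against 0 in the first, and 4 (second) and 1 (first) after GC removal or 3 (second) and 0 (first) on the count-weighted trend, with Txnrd1 at 142 TPM in the second library and 55.0 TPM in the first, Gpx2 at 150 TPM (second) and 1.12 TPM (first) and Srxn1 at 118 TPM (second) and 20.4 TPM (first). Srxn1 was the gene that turned, with a log2 ratio of 1.22 before, -3.84 after GC removal and -0.72 on the count-weighted trend.

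The core of the antioxidant response element, the run of letters known as the binding site of NRF2 with its partners, was searched as TGACNNNGC on both strands in the 250 bases before each RefSeq start. It was found in 4 of the 70 promoters of members (5.71%), those of Gsta3, Gstm5, Gstm7 and Mgst1, beside 10.2% of 32851 promoters overall. A match is a description of letters only. The 150 bases before the start of Gsta3 (chr1:21240435-21240584, plus strand), Gstm5 (chr3:107895704-107895853, plus strand) and Mgst1 (chr6:138140377-138140526, plus strand) are shown for the place of the core, in capitals, read 5′ to 3′ on the gene's strand (RefSeq, GRCm38.p6).
Gsta3: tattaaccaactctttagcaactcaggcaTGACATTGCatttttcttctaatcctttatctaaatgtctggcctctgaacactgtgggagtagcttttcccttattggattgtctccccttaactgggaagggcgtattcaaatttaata
Gstm5: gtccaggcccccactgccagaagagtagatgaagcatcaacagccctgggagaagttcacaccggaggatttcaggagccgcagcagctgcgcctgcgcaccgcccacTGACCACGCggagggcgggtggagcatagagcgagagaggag
Mgst1: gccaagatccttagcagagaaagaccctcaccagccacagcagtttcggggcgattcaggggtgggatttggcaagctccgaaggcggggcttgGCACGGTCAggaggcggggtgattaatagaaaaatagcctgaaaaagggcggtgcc
The core ends 34 bases before the RefSeq start in Gstm5, 48 in Mgst1, where it lies on the opposite strand, and 113 in Gsta3. These starts lie 33, 211 and 4 bases from the gene starts of GENCODE M21. By that annotation the core of Mgst1 lies within the gene.

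Of 11 transferases of other families 5 were higher in the second library, against 5 in the first, where 40.2% and 27.5% of all genes were. After GC removal 4 (second) and 0 (first) were higher, beside 17.5% and 17.6% of all genes. On the count-weighted trend 2 (second) and 0 (first) were, beside 14.1% and 13.1%. Nat8 had 78.0 TPM in the second library and 6.81 TPM in the first, and Nat2 had 29.2 TPM (second) and 51.9 TPM (first).

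Markers of the labelled tissue were high in both libraries. The 8 enterocyte markers summed to 12982 TPM in the second library and 8131 TPM in the first, where the mitochondrial share lowers all such sums. By scaled counts 4 were higher in the second library and 2, Sis and Apob, in the first, where 40.2% and 27.5% of all genes were. After GC removal 3 (second) and 1 (first) were higher, beside 17.5% and 17.6% of all genes. On the count-weighted trend 2 (second) and 0 (first) were, beside 14.1% and 13.1%. The same shares of all genes apply to the other marker lists below. Hepatocyte markers summed to 17.5 TPM (second) and 6.16 TPM (first), with Ahsg and Cyp7a1 at 0 counts in both. The 5 kidney tubule markers summed to 0.74 TPM in the second library and 2.71 TPM in the first, with Slc22a6 at 0 counts in both. Markers of other cells summed higher in the second library: 6 smooth muscle markers summed to 635 TPM in the second and 28.3 TPM in the first, 6 leukocyte markers to 3695 TPM (second) and 54.2 TPM (first), 5 goblet cell markers to 6327 TPM (second) and 307 TPM (first), and 8 pancreatic acinar markers to 11366 TPM (second) and 2061 TPM (first). Of the leukocyte sum, Igha alone gave 2951 TPM in the second library and 5.59 TPM in the first, whereas Ptprc, with 19.1 TPM (second) and 22.2 TPM (first), was 3.28-fold higher in the first library, and 4 of the 6 were higher in the second. By scaled counts 6 acinar markers were higher in the second library and 2, among them Amy2a5, were under the limit. After GC removal 6 acinar (1 in the first), 5 goblet, 5 smooth muscle and 4 leukocyte markers were higher in the second. On the count-weighted trend these were 6 (0 in the first), 5, 5 and 3. The part of these cells in the higher GST values of the second library was not tested, nor was that of GC content.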

How the data were processed

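Poly(A) RNA was measured in 2 technical libraries of 1 mouse. Per the file headers, the deposited gene and transcript tables hold expected counts (estimates that need not be whole), TPM values and FPKM values; the FPKM values deposited by the authors served 1 alternative only. Isoform shares were deposited as a percent of a gene's TPM, and the deposited posterior standard deviations of counts, a signal in reads, gave the allocation error. Assembly mm10 and annotation M4 are named in the deposited notes; for the aligner, quantifier and filtering of reads, versions and settings are not given in the sources used.

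Symbols and transcripts came from GENCODE M21, matched by identifier for 42462 of 43346 genes. Genes with 20 or more rounded counts over both libraries were tested by the two-sided exact binomial test (scipy 1.17.1) against TMM-scaled sizes (edgeR 4.0.16, R 4.3.3), with Benjamini-Hochberg adjustment over all tested genes and a 2-fold limit. With 1 library a side, edgeR's quasi-likelihood model could not be fitted. Without molecular identifiers reads are not independent, so errors cover counting and allocation only. Log2 ratios carry 0.5 prior counts. The GC trend was a lowess fit (span 0.3, statsmodels 0.14.6) over nuclear genes on the mean GC of a gene's annotated transcripts, and, added after seeing the data, on GC weighted by transcript counts; mitochondrial copies in the nuclear genome came from BLAST 2.17.0 (95% identity over 100 bases). Shared sequence was counted in 50-base windows of the main coding transcript.

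Members and gene lists were chosen with earlier results of these data known. Named members had a mean of 5 TPM or more, led their subfamily, were called with 100 or more counts or lay nearest the 1 TPM limit; the 3 most abundant genes of every other list, and genes at 0 counts, were named too. A few genes of the other lists are not reported here. Sult1e1, Sult2a8, Ugt1a2, Ugt1a5, Ugt1a6b, genes that share sequence with a member and the motif search were chosen after values were seen. The test was checked on simulated data. Alternatives covered other scalings (DESeq2 1.42.0 size factors, total counts, upper quartile, TMM without mitochondrial genes), count filters, fold and TPM limits, GC removal, the unit, the prior count and each library left out.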

Additional observations from a re-analysis of the deposited data

How the results depend on the processing

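The number of members higher in the first library was 14 with TMM scaling, 5 with total counts, 3 with the GC trend removed and 1 by the ratio of TPM, 2 with the count-weighted GC trend removed, an alternative chosen after seeing the data, and 13 to 16 under the other alternatives. The number higher in the second library was 18, and 15 to 27 under all alternatives. These settings moved the median log2 ratio of all genes by 0.84 for total counts, -0.50 for the upper quartile, -0.28 for GC removal and 1.15 for TPM. A change of library size shifts every gene alike, so it cannot move a family median relative to that of all genes. Relative to it, GST stood at 1.78 and UGT at -1.66 with TMM, total counts and the upper quartile. By the ratio of TPM they stood at 1.75 and -1.53. With GC removed they were 1.49 for GST and 0.36 for UGT, and with the count-weighted trend removed 1.28 and 0.42. The mean share of TPM was 0.145% for UGT, and 0.341% over counts and 0.364% over non-mitochondrial TPM. It was 0.150% for SULT, and 0.414% over non-mitochondrial TPM, and 0.474% for GST, and 0.801% over non-mitochondrial TPM. Single libraries gave 0.138% to 0.153% for UGT, 0.110% to 0.191% for SULT and 0.168% to 0.781% for GST. Members detected in both libraries numbered 36 at 0.5 TPM, 27 at 5 TPM and 38 in TPM without mitochondrial genes. With GC removed the sign turned for Ugt1a6a (0.42), Gstt3 (-1.45), Sult4a1 (-1.15), Sult1c2 (0.014), Gsto1 (-0.44), Mgst2 (0.38), Ugt2b34 (0.050), Ugt2b35 (1.12), Ugt2b36 (0.35), Ugt2b5 (0.44), Ugt2a3 (0.76), Ugt2b38 (0.30), Sult1b1 (0.13), Sult1d1 (0.37), Mgst1 (0.19) and Sult6b2 (0.24). With the count-weighted trend it turned for Ugt1a6a (0.73), Gstt3 (-0.38), Gstz1 (-0.038), Sult4a1 (-1.36), Gsto1 (-0.56), Mgst2 (0.45), Ugt2b35 (1.08), Ugt2b36 (0.69), Ugt2b5 (0.40), Ugt2a3 (0.71), Ugt2b38 (0.26), Sult1d1 (0.57), Mgst1 (0.54) and Sult6b2 (0.19). By the ratio of TPM it turned for Ugt1a7c (0.11), Ugt1a6a (1.32), Mgst2 (2.20), Ugt2b35 (0.26), Ugt2a3 (0.26), Mgst1 (0.32), Sult6b2 (0.15) and Sult1a1 (0.60). With total counts it turned for Ugt1a6a (0.53), Mgst2 (0.66), Mgst1 (0.20) and Sult1a1 (0.19), with the upper quartile for Gsta3 (-0.48), Gstz1 (-0.060), Gsta1 (-0.48) and Gsta2 (-0.30), and with DESeq2 size factors for Gsta3 (-0.022) and Gsta1 (-0.029). These shifts follow from the scaling or trend itself for total counts, upper quartile and GC removal; beyond that the cause was not tested. No paired analysis was possible because both libraries belong to 1 animal and 1 group. Few counts limit the ratio of Gstp2, with 4.86 counts in the first library and an SE of 1.00.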

Other observations

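Several members share long stretches with relatives, which bears on how reads were divided. Of the 66 members, 14 had under 50% of their 50-base windows to themselves, 6 of which were detected in both libraries, and 23 had all windows to themselves. The 4 Sult2a pseudogenes with a row had 0 counts in both libraries, as did 7 of the 8 Sult2a genes. Gm20441, which shares 26.0% of the windows of Gstt3, also had 0 counts in both. Among the Gsta genes, Gsta2 shares 44.8% of its windows with Gsta1 and had 7.10 TPM in the second library and 2.92 TPM in the first, while Gsta3, on chromosome 1 and with all windows unique, had 24.8 TPM in the second library and 7.92 TPM in the first. The Gsta3 log2 ratio was 0.02 before and 1.11 after GC removal, so it was higher in the second library on the second scale only.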
